A study of Mus musculus with 8 samples.

Results

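Adgre1, Fcgr1, Mertk, Cd163, Apoe and Ptprc are genes by which tissue macrophages are commonly recognised. These 6 genes were taken by name from the 754 genes of an nCounter panel, without a rule on their values, and all 6 were measured in all 8 samples of myeloid cells sorted from the mouse conjunctiva.

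Macrophages of a mucosal tissue take up dying cells, debris and immune complexes, and they carry receptors for each of these tasks. Adgre1 encodes the adhesion receptor known as the macrophage marker F4/80, and Fcgr1 encodes CD64, the high affinity receptor for IgG. Cd163 is the scavenger receptor for haemoglobin bound to haptoglobin, Mertk is a receptor tyrosine kinase for the uptake of apoptotic cells, Apoe is a secreted carrier of lipid, and Ptprc encodes CD45, the phosphatase carried by all leukocytes. Monocytes that enter a tissue from the blood lose Ly6C and gain macrophage receptors as they mature.

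CD11b+ cells came from the conjunctiva of female C57BL/6J mice aged 10 weeks. Mice of the NS group stayed in a normal environment, and mice of the DS5 group had 5 days of desiccating stress, with scopolamine in the drinking water to suppress tears and a draft of dry air. Living CD45+CD11b+ cells without markers of NK cells, granulocytes, T cells and B cells were sorted into MHCII+ cells and into MHCII-CD64+ cells with high Ly6C (monocytes), intermediate Ly6C (Ly6C-inter cells) or low Ly6C (Ly6C-low cells). Both conjunctivae of 20 mice were pooled per group. The populations of a condition were gates of the same sorting scheme and need not come from separate mice. There was 1 sample per population and condition, so no difference has a replicate check and no p-value is given. CD64 was part of the gate of the 3 MHCII- populations but not of the MHCII+ gate, which can therefore hold dendritic cells beside macrophages.

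The samples differed in depth and in content. The total over the 754 genes was 39677 counts for NS MHCII+ cells, 30335 for DS5 MHCII+ cells and 2728 to 14201 for the other 6 samples. A count was called detected when it was more than 2 SD above the mean of the sample's 8 negative control probes, a limit of 11.2 to 23.0 counts. Of the 754 genes, 24 were detected in NS monocytes, 52 in DS5 monocytes and 64 in DS5 Ly6C-low cells, against 96 to 291 in the other samples. The negative control means of those 3 samples were 6.5, 5.25 and 5.88 counts. Totals, shares and scaled ratios include undetected genes without subtraction of background, so in those 3 samples they do not measure expression alone. MHC class II genes and Cd74 made up 29.6% of the total in NS MHCII+ cells, 29.5% in DS5 MHCII+ cells and 0.68% to 2.21% in the others. The DS5 Ly6C-inter sample stood apart, with 25.4% of its total in Emp1, S100a11, S100a10 and Ly6c1 against 1.39% to 3.14% elsewhere. Its Ly6c1 count of 583, against 16 in DS5 monocytes, went against the order of the Ly6C gates. The 8 measured of 11 dendritic cell markers summed to 91 to 108 counts in MHCII+ cells and 15 to 23 elsewhere. Of these markers, 4 were detected in NS MHCII+ cells, 1 in DS5 MHCII+ cells and none elsewhere. As shares of the total, the dendritic cell sums were not highest in MHCII+ cells, at 27.22 to 29.998 per 10000. They were 45.8 to 73.3 in monocytes and 16.2 to 44.4 in Ly6C-inter and Ly6C-low cells, all from counts below the limit. The 7 measured of 8 neutrophil markers summed to 78 counts in DS5 Ly6C-inter cells, of which S100a9 gave 55, and to 13 to 31 in the other samples, although Ly6G+ cells had been gated out. Per 10000 gene counts the neutrophil sums were 22.4 to 54.9 in Ly6C-inter and Ly6C-low cells. They were 55.0 to 71.3 in monocytes and 4.94 to 5.29 in MHCII+ cells. Ly6g itself had 1 or 2 counts in every sample.

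The 6 macrophage genes were detected more often than the panel as a whole. Of their 48 gene and sample pairs, 26 (54.2%) were above the limit, against 948 of the 6032 pairs of all genes (15.7%). All 6 were detected in NS MHCII+ cells, 5 in DS5 MHCII+ cells, 4 each in Ly6C-inter and Ly6C-low cells of NS, 3 each in those of DS5, 1 in DS5 monocytes and none in NS monocytes. Adgre1, Cd163 and Apoe had the same pattern of detection, above the limit in every sample but the monocytes of both groups. Detection in 6 or more samples was seen for 54 of the 754 genes (7.16%). In a pooled sample, fewer cells of a type and less RNA per cell cannot be told apart, and counts of different genes are not compared as levels because their probes may bind with different efficiency.

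**Figure D1:**
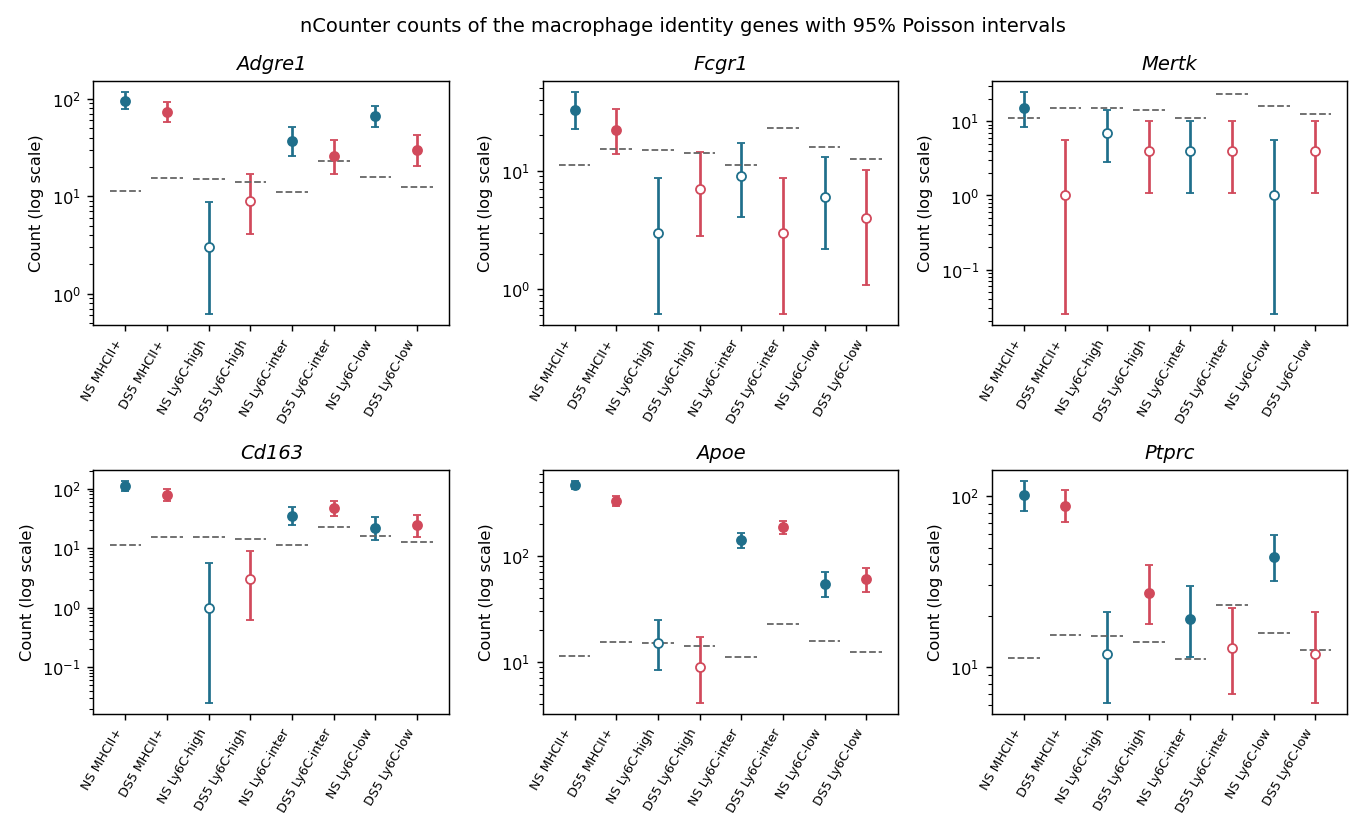
Counts of Adgre1, Fcgr1, Mertk, Cd163, Apoe and Ptprc (log axis) in the 8 samples, NS in blue and DS5 in red, with exact 95% Poisson intervals, which cover counting error only. Dashed lines mark the negative control limit of each sample and open circles are counts below it. Adgre1, Cd163 and Apoe are above the line in 6 samples and below it in both monocyte samples, whereas Mertk is above it in NS MHCII+ cells only.

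Adgre1, the F4/80 gene, was detected in every population but the monocytes, whose totals were small and in which 24 (NS) and 52 (DS5) genes were detected. MHCII+ cells held 96 Adgre1 counts in NS and 74 in DS5, monocytes 3 and 9, Ly6C-inter cells 37 and 26 and Ly6C-low cells 66 and 30. As a share of all gene counts the order was different, since MHCII+ cells had the largest totals. Adgre1 took 113.8 of 10000 counts in NS Ly6C-low cells, 74.0 in DS5 Ly6C-low cells and 62.2 in NS Ly6C-inter cells. The other 5 samples lay between 11 and 24.4 per 10000. Among them, DS5 monocytes at 22.9, from a count below the limit, were near MHCII+ cells at 24.2 (NS) and 24.4 (DS5). DS5 Ly6C-inter cells were at 18.3 and NS monocytes at 11. Of the 7 neighbouring pairs in this order, the 95% interval of the ratio excluded 1 for a single pair, NS Ly6C-inter cells and DS5 MHCII+ cells, which lie on either side of the gap below the 3 highest samples.

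Cd163, the haemoglobin scavenger receptor, was likewise not detected in monocytes. MHCII+ cells held 112 Cd163 counts in NS and 78 in DS5, monocytes 1 and 3, Ly6C-inter cells 35 and 47 and Ly6C-low cells 22 and 24. Per 10000 gene counts it ranged from 25.7 to 59.2 in the 6 samples other than monocytes and was 3.67 (NS) and 7.64 (DS5) in monocytes. DS5 monocytes and the lowest of the other samples, DS5 MHCII+ cells, were the only neighbours in this order whose ratio had an interval without 1. Both monocyte counts were below the limit.

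Apoe, the lipid carrier, reached its highest share in NS Ly6C-inter cells. MHCII+ cells held 469 Apoe counts in NS and 329 in DS5, monocytes 15 and 9, Ly6C-inter cells 141 and 187 and Ly6C-low cells 54 and 60. Its share was 237 per 10000 in NS Ly6C-inter cells, above all other samples, and the interval of its ratio to the next sample, DS5 Ly6C-low cells at 148 per 10000, excluded 1. The remaining shares were 132 for DS5 Ly6C-inter cells, 118 and 108 for MHCII+ cells of NS and DS5, 93.1 for NS Ly6C-low cells, 55.0 for NS monocytes and 22.9 for DS5 monocytes. No other neighbours in this order were apart beyond counting error. The lowest shares were thus those of the monocytes, where both counts lay under the limit.

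Fcgr1, the gene of CD64, was detected in the MHCII+ cells alone, with 33 counts in NS and 22 in DS5. Of the samples sorted as CD64+, monocytes held 3 (NS) and 7 (DS5) Fcgr1 counts, Ly6C-inter cells 9 and 3 and Ly6C-low cells 6 and 4, all below their limits. The transcript was therefore not detected in the populations gated on its protein at this depth. Its share was not highest in MHCII+ cells, at 8.32 (NS) and 7.25 (DS5) per 10000. The samples sorted as CD64+ had 9.86 to 17.8, apart from DS5 Ly6C-inter cells at 2.11. Its shares, from 2.11 to 17.8 per 10000, rest on counts below the limit in 6 of 8 samples, and their order was resolved for the lowest neighbours only, DS5 MHCII+ over DS5 Ly6C-inter cells.

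Mertk, the receptor for apoptotic cells, was above the limit in NS MHCII+ cells only, with 15 counts against a limit of 11.2. DS5 MHCII+ cells held 1 count, monocytes 7 (NS) and 4 (DS5), Ly6C-inter cells 4 and 4 and Ly6C-low cells 1 and 4. The highest share, 25.7 per 10000 in NS monocytes, came from 7 counts in the smallest total. None of the 7 neighbouring pairs in the order of shares was apart beyond counting error, although some samples farther apart in it were, as given with the ratios.

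Ptprc, carried by all sorted cells as CD45, was detected in 5 samples. MHCII+ cells held 101 Ptprc counts in NS and 88 in DS5, monocytes 12 and 27, Ly6C-inter cells 19 and 13 and Ly6C-low cells 44 and 12. The 12, 13 and 12 counts of NS monocytes, DS5 Ly6C-inter cells and DS5 Ly6C-low cells were below their limits. Ptprc was the only one of the 6 genes detected in a monocyte sample. Per 10000 gene counts it was 75.9 in NS Ly6C-low cells, 68.7 in DS5 monocytes, 25.5 to 44.0 in 5 samples and 9.15 in DS5 Ly6C-inter cells. Only the lowest step in this order, from NS MHCII+ to DS5 Ly6C-inter cells, was outside counting error. The share of a pan-leukocyte gene thus ranged widely between samples that were all sorted as CD45+.

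**Figure D2:**
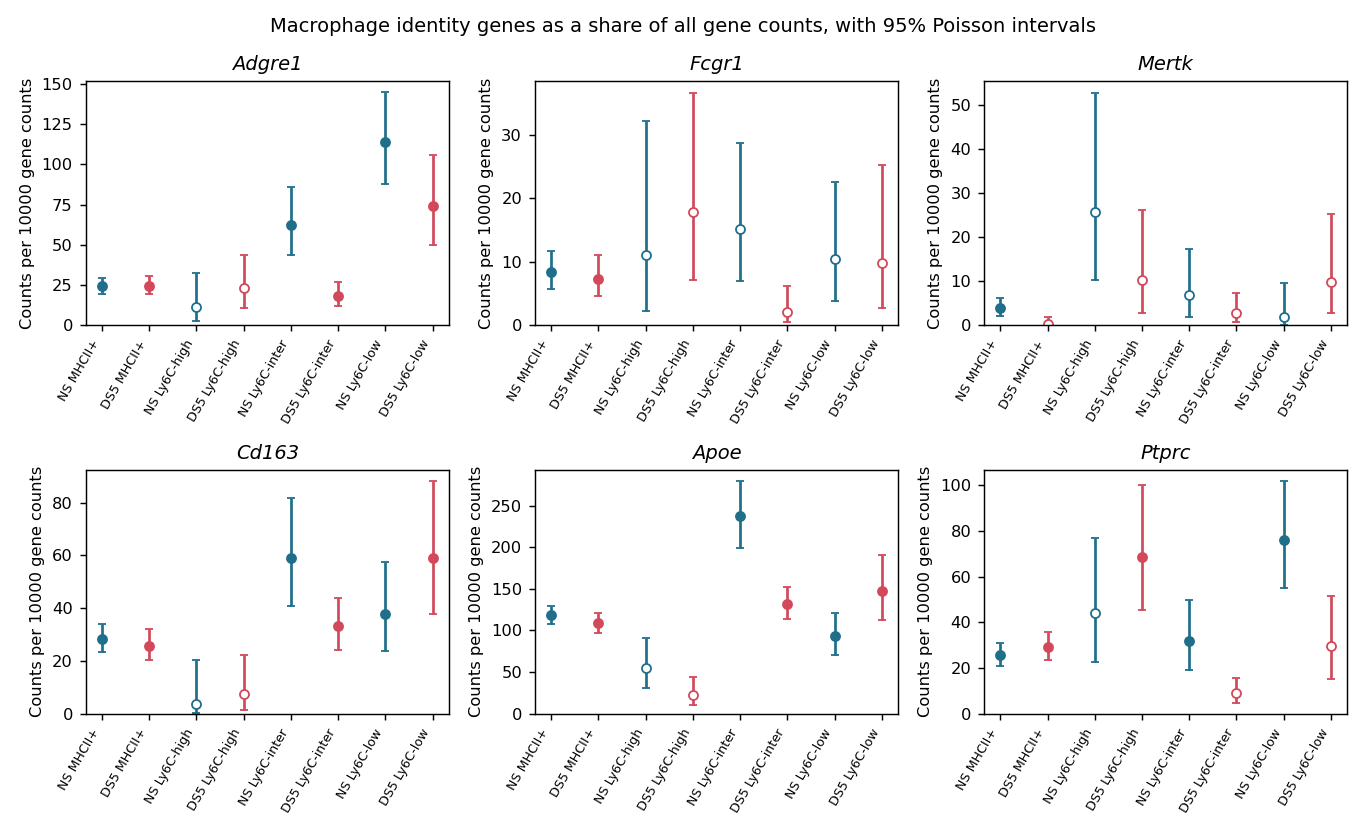
The 6 genes as counts per 10000 gene counts (linear axes, a range per gene) in the 8 samples, NS in blue and DS5 in red, with 95% Poisson intervals and open circles for counts below the negative control limit. Adgre1 is highest in NS Ly6C-low cells (113.8), Apoe in NS Ly6C-inter cells (237) and Ptprc in NS Ly6C-low cells (75.9), and Cd163 is lowest in both monocyte samples.

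Ly6C-inter and Ly6C-low cells were next compared with monocytes of the same condition, which asks how the MHCII- populations along the Ly6C gates differ in macrophage genes. Counts were scaled to equal totals, and a log2 ratio of at least 2 was the threshold, as the study used between populations. Among NS Ly6C-inter cells 3 of the 6 genes were higher, Cd163 at 4.0 (95% counting interval 1.43 to 9.35), Adgre1 at 2.50 (0.84 to 4.84) and Apoe at 2.11 (1.34 to 2.98), where 3.32% of all genes were higher. None was lower, against 20.7% of all genes. In NS Ly6C-low cells Adgre1 and Cd163 were higher, both at 3.37 (1.76 to 5.69 and 0.74 to 8.74), against 3.32% of all genes, and Mertk, at 1 count over 7, was lower at -3.90 (-9.39 to -0.93), against 20.7%. Apoe was at 0.76 (-0.09 to 1.69) in that comparison.

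The same comparison in DS5 gave 2 higher genes in each population. Cd163 at 2.12 (0.48 to 4.44) and Apoe at 2.52 (1.57 to 3.67) were higher in DS5 Ly6C-inter cells, against 3.32% of all genes. Fcgr1 at -3.08 (-5.66 to -0.95) and Ptprc at -2.91 (-3.99 to -1.90) were lower there, against 16% of all genes. The Fcgr1 ratio came from 3 and 7 counts, both below their limits. That of Ptprc came from 13 counts, below the limit, and 27 in monocytes. In DS5 Ly6C-low cells Cd163 was at 2.95 (1.23 to 5.33) and Apoe at 2.69 (1.67 to 3.89), against 5.17% of all genes higher, and none of the 6 was lower, against 8.75%. Adgre1 was at 1.69 (0.58 to 2.95), short of the threshold, in DS5 Ly6C-low cells and at -0.32 (-1.46 to 0.95) in DS5 Ly6C-inter cells.

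Over both conditions, 9 of the 24 ratios to monocytes were higher and 3 were lower, against 3.78% and 16.5% of the ratios of all genes. Among pairs with a count above the limit, 9 were higher and 1 was lower. The median of all genes in these 4 comparisons lay between -1.09 and -0.05, and the ratios above are not corrected for it. All monocyte counts of Adgre1, Cd163 and Apoe were below the limit, and with every count raised to its sample's limit before scaling 3 of the 24 remained past the threshold, those of Apoe at 3.27 in NS Ly6C-inter cells and at 2.57 and 2.22 in DS5 Ly6C-inter and Ly6C-low cells. The 9 ratios above 2 kept their sign under every scaling, background and floor that was tried.

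**Figure D3:**
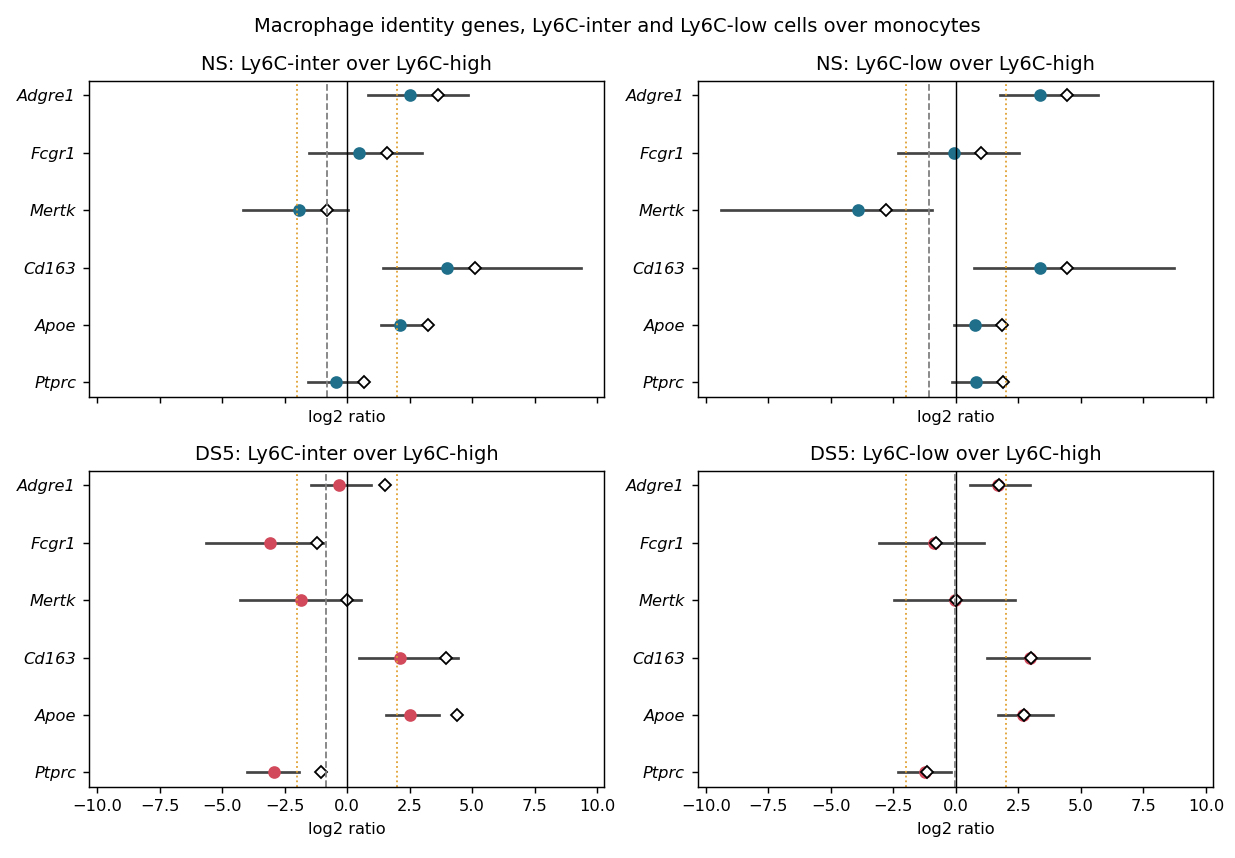
Log2 ratios of the 6 genes in Ly6C-inter (left) and Ly6C-low cells (right) over monocytes, in NS (top, blue) and DS5 (bottom, red), with counts scaled to equal totals (circles, with 95% counting intervals) and without scaling (diamonds). Dotted lines mark the threshold of 2 in either direction and dashed lines the median of all genes. Cd163 lies beyond the upper dotted line in all 4 panels, from 2.12 to 4.0.

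Cells sorted as MHCII+ were then compared with each MHCII- population. After scaling to equal totals, Cd163 was higher in MHCII+ cells than in monocytes of NS at 2.94 (0.44 to 8.26), the 1 higher gene of 6 where 1.86% of all genes were higher. Mertk was lower at -2.76 (-4.14 to -1.23), where 52.1% of all genes were lower. Against NS Ly6C-inter cells none of the 6 passed in either direction, with 1.72% of all genes higher and 24.5% lower. Against NS Ly6C-low cells none was higher, where 1.86% of all genes were, and Adgre1 was lower at -2.23 (-2.70 to -1.76), where 21.8% were.

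In DS5, Apoe was higher in MHCII+ cells than in monocytes at 2.24 (1.30 to 3.38), where 2.25% of all genes were higher. Mertk was lower at -3.76 (-10.57 to -1.61), from 1 and 4 counts, where 39.5% were lower. None of the 6 passed against DS5 Ly6C-inter cells, with 3.18% of all genes higher and 17.9% lower. Against DS5 Ly6C-low cells Mertk, again at 1 and 4 counts, was lower at -3.72 (-10.52 to -1.57) where 35.1% of all genes were lower, and none was higher where 2.39% were. Among the ratios of Apoe, Cd163 and Adgre1 to Ly6C-inter and Ly6C-low cells, that of Adgre1 to NS Ly6C-low cells was the only one past the threshold.

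The direction of these comparisons depended on the scaling. With equal totals 1 of the 18 ratios of NS MHCII+ cells was higher and 2 were lower, against 1.81% and 32.8% of all ratios, and without scaling 10 were higher and none was lower, with Adgre1 at 0.54 in place of -2.23 against NS Ly6C-low cells. In DS5, 1 of 18 was higher and 2 were lower with equal totals, against 2.61% and 30.9% of all ratios, and 8 were higher and 3 lower without scaling. The MHCII+ totals hold many MHC class II and Cd74 counts, as given above, and their part in these ratios was not tested. With the total taken over the genes other than the 5 highest of any sample, Adgre1 was at -1.57 against NS Ly6C-low cells.

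Desiccating stress was compared with NS within each population at the study's threshold of 1.5. In MHCII+ cells, the deepest pair of samples, 5 of the 6 genes lay close to 0 and 1 was lower. The log2 ratios of DS5 over NS were 0.01 (-0.45 to 0.46) for Adgre1, -0.20 (-1.05 to 0.62) for Fcgr1, -0.13 (-0.57 to 0.30) for Cd163, -0.12 (-0.33 to 0.08) for Apoe and 0.19 (-0.24 to 0.62) for Ptprc. These intervals leave no room for a ratio of 1.5 in either direction, as far as counting error goes. Mertk, with 15 counts in NS and 1 in DS5, was at -2.33 (-8.92 to -0.82), where 1.46% of all genes were lower. None of the 6 was higher, against 1.19% of all genes. With counts raised to the limit and then scaled to equal totals, Mertk was at 0.28. Before that scaling the DS5 count had become 15.3, the limit of that sample, against 15 in NS.

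In monocytes none of the 6 genes passed 1.5 in either direction, with 6.37% of all genes higher and 14.3% lower in DS5. Ptprc was at 0.64 (-0.39 to 1.76) with 27 counts in DS5 and 12 in NS. Apoe was at -1.26 (-2.64 to 0.02) with 9 and 15 counts. The intervals of all 6 genes included 0, so at this depth no difference of the size seen could be told from counting error.

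In Ly6C-inter cells 3 of the 6 genes were lower in DS5, against 13.9% of all genes, and none was higher, against 7.29%. Adgre1 was at -1.76 (-2.55 to -1.00) from 26 and 37 counts, Ptprc at -1.80 (-2.94 to -0.71) from 13 and 19 counts and Fcgr1 at -2.84 (-5.36 to -0.84) from 3 and 9 counts. Both Fcgr1 counts and the 13 Ptprc counts were below their limits. Apoe at -0.85 (-1.17 to -0.52) and Cd163 at -0.83 (-1.49 to -0.16) were also below 0 and within the threshold. All 5 ratios involve the DS5 sample in which Emp1, S100a11, S100a10 and Ly6c1 made up 25.4% of the total. The neutrophil markers summed to 78 counts in that sample and 31 in NS, from totals of 14201 and 5948. The part of these genes in the ratios was not tested. Without scaling Adgre1 was at -0.51 and Ptprc at -0.55, whereas Apoe at 0.41 and Cd163 at 0.43 were above 0. Over the 3 MHCII- populations, 1 of 18 ratios was higher and 3 were lower, against 12.8% and 10.3% of the ratios of all genes, and without the Ly6C-inter samples 1 was higher and none was lower.

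In Ly6C-low cells Mertk, at 4 counts in DS5 and 1 in NS, was the 1 gene past the threshold, higher at 2.52 with an interval from -0.82 to 8.14 that included 0. Of all genes, 24.7% were higher and 2.79% lower. Ptprc was at -1.36 (-2.42 to -0.41) with 12 and 44 counts and Apoe at 0.67 (0.11 to 1.23) with 60 and 54 counts, both within the threshold with intervals that excluded 0. Adgre1 was at -0.62 (-1.30 to 0.02) with 30 and 66 counts. The median of all genes in this comparison was 0.52, so Apoe lay near it and Ptprc and Adgre1 lay below it.

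**Figure D4:**
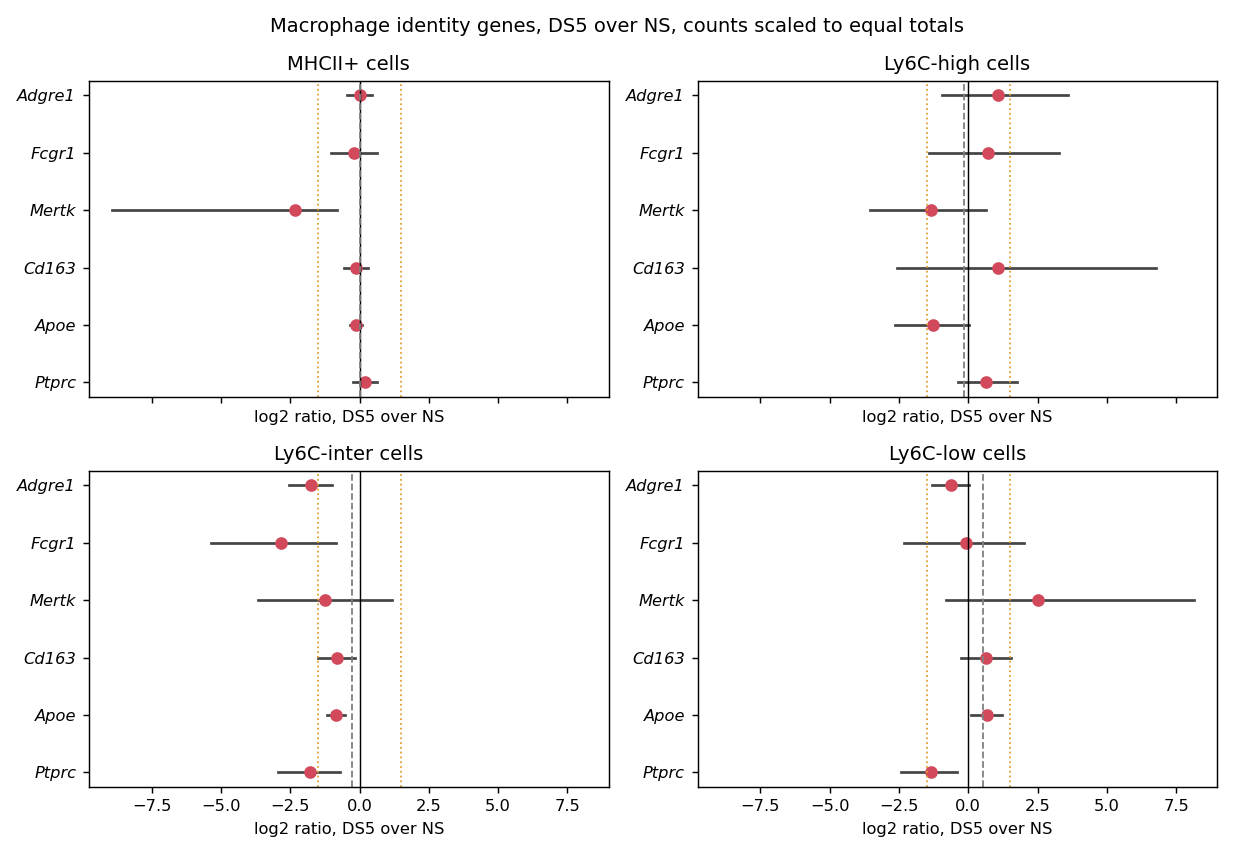
Log2 ratios of DS5 over NS for the 6 genes in each sorted population after scaling to equal totals, with 95% counting intervals. Dotted lines mark the threshold of 1.5 and dashed lines the median of all genes. In MHCII+ cells 5 genes lie between -0.20 and 0.19, and in Ly6C-inter cells Adgre1, Fcgr1 and Ptprc lie beyond the lower dotted line.

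Ratios between 2 of the genes within a sample need no scaling, and they were compared for the 4 genes detected in at least 5 samples, Adgre1, Cd163, Apoe and Ptprc, over the 6 samples other than monocytes. There were 54 such comparisons, and the exact interval of the ratio of ratios excluded 1 in 23 of them, 5 of 18 between DS5 and NS and 18 of 36 between populations. No correction for the number of comparisons was made, and the ratios were chosen after the counts had been seen.

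Apoe and Cd163 kept nearly the same ratio under stress. For each Cd163 count, Apoe had 4.19 (NS) and 4.22 (DS5) counts in MHCII+ cells, 4.03 and 3.98 in Ly6C-inter cells and 2.45 and 2.50 in Ly6C-low cells. The DS5 ratio was 1.01 times the NS ratio (0.72 to 1.41) in MHCII+ cells, 0.99 times (0.59 to 1.66) in Ly6C-inter cells and 1.02 times (0.48 to 2.14) in Ly6C-low cells. The lower ratio of Ly6C-low than of Ly6C-inter cells was within counting error in both conditions.

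Adgre1 and Ptprc shifted against Apoe and Cd163 in some populations. For each Apoe count, Adgre1 had 0.205 counts (NS) and 0.225 (DS5) in MHCII+ cells, 0.262 and 0.139 in Ly6C-inter cells and 1.22 and 0.50 in Ly6C-low cells. The ratio was 4.66 times higher (2.71 to 8.02) in Ly6C-low than in Ly6C-inter cells of NS and 3.60 times higher (1.88 to 6.85) in DS5. Between conditions it was 0.41 times the NS value (0.22 to 0.75) in Ly6C-low cells and 0.53 times (0.29 to 0.95) in Ly6C-inter cells, and 1.10 times (0.77 to 1.56) in MHCII+ cells. Relative to Cd163, Adgre1 was 0.42 times the NS value (0.19 to 0.91) in Ly6C-low cells, and in Ly6C-inter cells, at 0.52 times (0.25 to 1.07), and MHCII+ cells, at 1.11 times (0.71 to 1.72), the interval included 1. Adgre1 was thus lower relative to Apoe in DS5 than in NS in both populations, beyond counting error, and this ratio does not depend on the scaling.

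Ptprc had 0.215, 0.135 and 0.815 counts for each Apoe count in MHCII+, Ly6C-inter and Ly6C-low cells of NS, and the DS5 values were 0.267, 0.0695 and 0.20. The NS ratio was 6.05 times higher (3.12 to 11.92) in Ly6C-low than in Ly6C-inter cells. In Ly6C-low cells the DS5 ratio was 0.25 times the NS ratio (0.11 to 0.54) against Apoe and 0.25 times (0.10 to 0.64) against Cd163. In Ly6C-inter cells it was 0.52 times (0.23 to 1.15) and 0.51 times (0.20 to 1.26), and in MHCII+ cells 1.24 times (0.89 to 1.73) and 1.25 times (0.82 to 1.92), all with intervals that included 1. The Ptprc counts of both DS5 samples were below the limit.

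**Figure D5:**
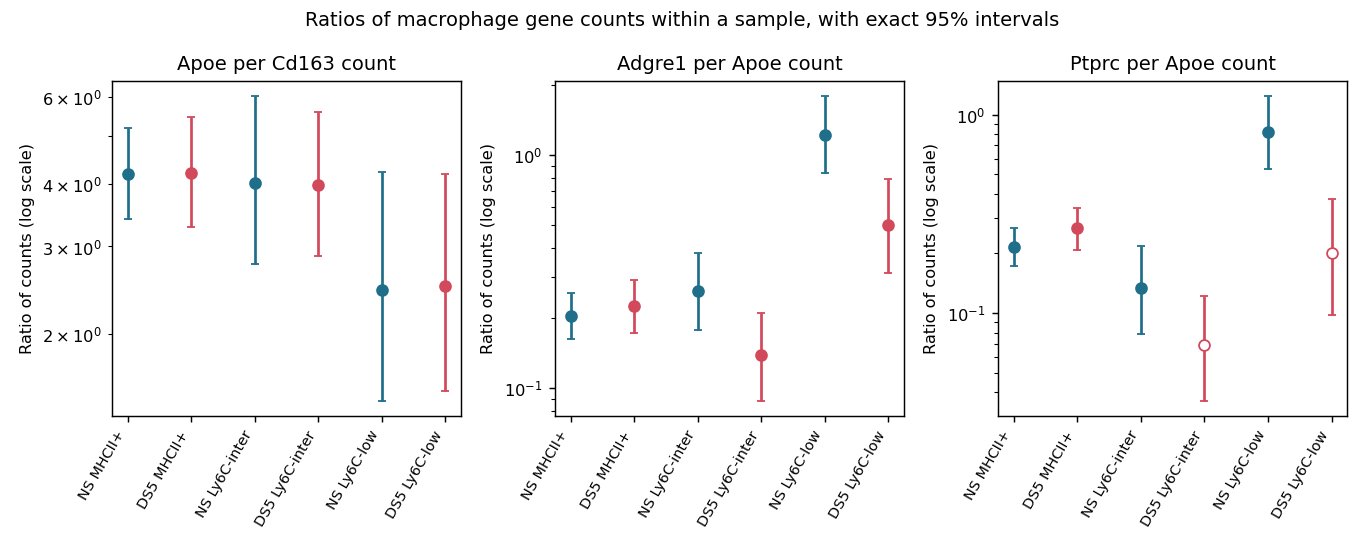
Counts of Apoe for each Cd163 count, Adgre1 for each Apoe count and Ptprc for each Apoe count within a sample (log axes), NS in blue and DS5 in red, with exact 95% intervals. Open circles mark ratios with a count below the limit. The first ratio is 4.19 and 4.22 in NS and DS5 cells sorted as MHCII+, and the other two are highest in NS Ly6C-low cells, at 1.22 and 0.815.

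Across the 8 samples, the scaled log2 values of the genes fell into groups. Cd163 and Apoe had Pearson's r = 0.82, Adgre1 and Cd163 0.74 and Fcgr1 and Ptprc 0.85, whereas Apoe and Ptprc had -0.54. These are descriptions over 8 samples that share 4 populations, with low counts in most, and without scaling Apoe and Ptprc had 0.53. The genes with the pattern most like that of each were sought among the 227 or 228 others above the limit in at least 2 samples. For Cd163 they were Ccl12 (0.97), a monocyte-attracting chemokine, Cd36 (0.95), a scavenger receptor, and C1qb (0.94), a chain of complement C1q. For Apoe they were Ccl2 (0.98), the ligand of CCR2, C1qa (0.98) and Mrc1 (0.96), the mannose receptor.

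For Adgre1 the nearest genes were Fosb (0.94), an immediate early transcription factor, the chemokine Ccl3 (0.93) and the costimulatory ligand Cd80 (0.92). Fcgr1 was closest to Tyrobp (0.96), the adaptor of many myeloid receptors, Cybb (0.90), a subunit of the phagocyte oxidase, and Sirpa (0.88). Ptprc was closest to Tyrobp (0.94), Skil (0.94) and Hif1a (0.93), the oxygen-regulated transcription factor. Mertk had the lowest likeness, to Irf2 (0.81), Txn1 (0.78) and Il4ra (0.78), and without scaling these fell to between 0.13 and 0.16.

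Promoters of the genes were read because, after scaling, Fcgr1 and Ptprc shared a pattern that Cd163 did not. That pattern rests on low counts, since Fcgr1 was above the limit in 2 of the 8 samples and Ptprc in 5. Cd163 had r = -0.23 with Fcgr1 and -0.35 with Ptprc after scaling, but 0.60 and 0.54 without it. The 6-base core GAGGAA, bound by the myeloid factor PU.1 and other Ets factors, was sought on both strands. The window was the 250 bases before a transcript start, from RefSeq on GRCm38.p6, and 5 of the 6 genes had at least 1 window, 8 windows in all. A start need not be the outermost of a gene. The windows of Ptprc and Apoe lie within the spans of their genes, and that of Cd163 reaches into its span. Fcgr1 lies on chromosome 3 (96282909 to 96293969, minus strand), Ptprc on chromosome 1 (138062859 to 138175756, minus strand) and Cd163 on chromosome 6 (124304636 to 124330529, plus strand). The window of Fcgr1 (chr3:96293970-96294219, minus strand), the upstream of 2 of Ptprc (chr1:138175306-138175555, minus strand) and that of Cd163 (chr6:124304401-124304650, plus strand) are given 5′ to 3′ in the direction of the gene, with the core in capitals, as TTCCTC where it lies on the opposite strand.
Fcgr1: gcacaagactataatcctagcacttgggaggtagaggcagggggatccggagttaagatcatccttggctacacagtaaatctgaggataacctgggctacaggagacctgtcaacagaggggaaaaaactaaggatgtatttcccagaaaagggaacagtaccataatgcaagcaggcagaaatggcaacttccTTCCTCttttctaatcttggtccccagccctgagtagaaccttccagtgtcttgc
Ptprc: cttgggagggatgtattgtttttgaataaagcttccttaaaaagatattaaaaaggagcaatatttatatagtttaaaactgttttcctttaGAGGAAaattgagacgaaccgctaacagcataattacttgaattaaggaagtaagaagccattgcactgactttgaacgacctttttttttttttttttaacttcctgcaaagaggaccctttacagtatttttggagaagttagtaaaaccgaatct
Cd163: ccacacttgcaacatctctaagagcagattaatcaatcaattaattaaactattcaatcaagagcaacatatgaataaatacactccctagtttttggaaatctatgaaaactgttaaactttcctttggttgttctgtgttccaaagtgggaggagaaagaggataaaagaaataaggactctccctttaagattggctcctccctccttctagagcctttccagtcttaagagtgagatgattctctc
The core began 55 bases before the Fcgr1 start and 158 bases before the upstream of the 2 Ptprc starts, and it was neither in the second Ptprc window nor in the Cd163 window. It was also in 2 of the 3 Apoe windows and not in that of Mertk, which makes 3 of the 5 genes and 4 of the 8 windows. Of all 32851 windows 23.3% held it, and of the 701 windows of panel genes 32.5%. The match describes these letters only.

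Other genes of the same pathways were read from lists of partners. Of 24 further macrophage genes, 16 were measured. Against NS monocytes, 1 was higher and 3 were lower in each of Ly6C-inter and Ly6C-low cells, where 3.32% of all genes were higher and 20.7% lower. Against DS5 monocytes, 1 was higher and 1 lower in Ly6C-inter cells (3.32% and 16% of all genes) and 2 were higher and 1 lower in Ly6C-low cells (5.17% and 8.75%). Mrc1 had 186 (NS) and 151 (DS5) counts in MHCII+ cells, 6 and 4 in monocytes, 43 and 47 in Ly6C-inter cells and 25 and 23 in Ly6C-low cells, and it was detected in the same 6 samples as Apoe and Cd163. Itgam, the CD11b gene on which all cells were sorted, had 161 counts in DS5 Ly6C-inter cells and 91 or fewer elsewhere, and was below the limit in monocytes at 7 and 8 counts. Under stress none of the 16 passed the threshold in MHCII+ cells, where 1.19% of all genes were higher and 1.46% lower. In monocytes none was higher and 2 were lower (6.37% and 14.3% of all genes), in Ly6C-inter cells 1 was higher and 3 were lower (7.29% and 13.9%), and in Ly6C-low cells 3 were higher and 1 was lower (24.7% and 2.79%).

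Of 7 Fc receptor partners, 4 were measured. Fcgr2b, the inhibitory receptor for IgG, had 232 and 165 counts in MHCII+ cells, 12 and 5 in monocytes, 43 and 39 in Ly6C-inter cells and 16 and 34 in Ly6C-low cells, so it was detected in the CD64+ sorted Ly6C-inter and Ly6C-low cells where Fcgr1 was not. Fcgr3, an activating receptor, had 86 and 66 counts in MHCII+ cells and 6 to 25 elsewhere. Between DS5 and NS none of the 4 passed in MHCII+ cells, 1 was lower in each of monocytes and Ly6C-inter cells, where 14.3% and 13.9% of all genes were lower, and 1 was higher in Ly6C-low cells, where 24.7% were higher.

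Of 9 partners of Mertk in the uptake of apoptotic cells, 4 were measured, and the related receptors Axl and Tyro3 and the ligand Gas6 were not analysed here. Cd36 had 127 and 72 counts in MHCII+ cells, 3 and 5 in monocytes, 36 and 38 in Ly6C-inter cells and 26 and 24 in Ly6C-low cells. Pros1, the gene of protein S, a Mertk ligand, had 13 and 19 counts in MHCII+ cells and 2 to 12 elsewhere. Of the 4, 1 was past the threshold between DS5 and NS in any population, lower in Ly6C-inter cells, where 13.9% of all genes were.

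Of 10 lipid handling partners of Apoe, 6 were measured. Lpl, lipoprotein lipase, had 101 (NS) and 97 (DS5) counts in MHCII+ cells and 2 to 8 elsewhere. Unlike Apoe, it was below the limit in Ly6C-inter and Ly6C-low cells. Lipa, a lysosomal lipase, had 45 (NS) and 31 (DS5) counts in MHCII+ cells and 3 to 18 elsewhere. Between DS5 and NS none of the 6 passed in MHCII+ cells. In each of monocytes and Ly6C-inter cells 1 was lower, where 14.3% and 13.9% of all genes were lower. In Ly6C-low cells 4 of the 6 were higher, where 24.7% of all genes were higher. All of the 6 were below the limit in Ly6C-low cells of both conditions. The 6 haem and iron genes listed beside Cd163 were not analysed here. Adgre5, the 1 measured of 4 adhesion receptors related to Adgre1, had 45 and 42 counts in MHCII+ cells and 11 to 20 elsewhere, and Fyn, the 1 measured of 7 partners of Ptprc, was below the limit in every sample.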

How the data were processed

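The authors sorted CD11b+ cells from pooled conjunctivae, isolated the RNA and hybridized it to an nCounter panel of myeloid and innate immune genes of the mouse (NanoString), on which a digital analyzer counts a barcode for each transcript. The deposited table holds raw counts, whole numbers of at least 1 without normalization, for 754 genes, 8 negative and 6 positive control probes in 8 samples. No value was 0, so a value of 1 may stand for less. The paper names nSolver software, and its normalization settings are not given in the sources used here.

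A sample's detection limit was 2 SD above the mean of its negative control probes. For each pair of samples, counts were scaled to equal totals over the genes (13334 counts), values under 1 were set to 1 and the log2 ratio was taken. Scaling to reference genes was an alternative, since 2 of the 19 measured exceeded that limit throughout. The 95% intervals are exact Clopper-Pearson intervals of the pair of counts, shifted by the scaling and without that floor, exact Poisson intervals of single counts, and exact conditional intervals of ratios of ratios. They cover counting error only, since 1 sample per condition gives no replicate error, and precision follows the total of a sample, from 2728 to 39677 counts. No p-values were computed.

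The 6 genes are always named. From each partner list, the genes above the limit in at least 1 sample are named, up to the 4 with the highest count, and for each of the 6 genes the 3 with the highest Pearson's r. The genes and lists were chosen with earlier results of these data known. Alternatives were other scalings, background corrections, floors, filters and thresholds. The code was tested on simulated data. Scripts ran in Python 3.11.15. Intervals came from scipy 1.17.1, tables from pandas 2.3.3 with numpy 2.4.6, and plots from matplotlib 3.10.9. Flow cytometry was not analysed here, and 1 gene of the partner lists is not reported here.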

Additional observations from a re-analysis of the deposited data

Results flagged for a closer look

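The scaled Apoe ratios of DS5 to NS had opposite signs in a pair of populations. After scaling to equal totals, Ly6C-inter cells had a ratio of DS5 to NS of -0.85 on the log2 scale (95% counting interval -1.17 to -0.52), and Ly6C-low cells had 0.67 (0.11 to 1.23). Both intervals excluded 0, and the difference between the populations was not tested, since each has 1 sample per condition. The medians of all genes were -0.26 in Ly6C-inter and 0.52 in Ly6C-low cells, so Apoe lay near the median in Ly6C-low cells. Without scaling the values were 0.41 and 0.15, and the Apoe counts behind them were 187 in DS5 and 141 in NS Ly6C-inter cells and 60 and 54 in Ly6C-low cells.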

How the results depend on the processing

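No paired analysis was possible because each condition had 1 pooled sample and the labels give no replicate numbers. Counts of the 6 genes past the threshold are given as higher and lower, summed over the pairs of a comparison. With equal totals they were 1 and 2 of 18 ratios for NS MHCII+ cells over MHCII- populations, 1 and 2 of 18 for DS5, 9 and 3 of 24 for Ly6C-inter and Ly6C-low cells over monocytes, 0 and 1 of 6 for DS5 over NS in MHCII+ cells and 1 and 3 of 18 in MHCII- populations. In this order of comparisons, without scaling they were 10 and 0, 8 and 3, 9 and 1, 0 and 1, and 3 and 2. With positive controls they were 11 and 0, 8 and 0, 10 and 1, 0 and 1, and 3 and 2. With reference genes the first was 3 and 0, the second 4 and 2 and the last 1 and 4. Scaled to Ptprc, which then has no value itself, they were 2 and 0, 2 and 4, 11 and 1, 0 and 1, and 3 and 2. With the mean of the negative controls subtracted they were 4 and 2, 5 and 3, 10 and 5, 0 and 1, and 2 and 6. With counts raised to the limit they were 1 and 0, 1 and 0, 3 and 0, 0 and 0, and 0 and 1. Only pairs with a count above the limit gave 1 and 0 for DS5 MHCII+ cells, 9 and 1 over monocytes, and 0 and 2 for DS5 over NS in MHCII- populations. A threshold of 1 gave 4 and 6, 4 and 7, 10 and 6, 0 and 1, and 3 and 7. Chosen after seeing the data, a total without the 5 highest genes of any sample gave 1 and 0, 3 and 2, and for DS5 over NS in MHCII- populations 1 and 2, and the last became 1 and 0 without the Ly6C-inter samples. Among ratios past the threshold, directions turned for Mertk in NS MHCII+ cells over monocytes (1.10 without scaling, 1.28 with positive controls), Adgre1 in NS MHCII+ over Ly6C-low cells (0.54 and 0.58), Mertk in DS5 over NS MHCII+ cells (0.28 raised to the limit) and Adgre1 in DS5 over NS Ly6C-inter cells (0.039 scaled to Ptprc). The cause was not tested. Of 742 values of the 6 genes under alternatives, 550 lay within the interval of the value given, 186 moved beyond it, some of them across 0, and 6 were ratios past the threshold that turned direction, and 16 of the 23 ratios past the threshold kept their sign in all alternatives. Subtracting the background, also chosen after seeing the data, left all 30 ratios between genes within their intervals. Depth limits most ratios: 26 of the 48 counts were above the negative control limit.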
